A study of Trichoderma reesei with 12 samples.

Results

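The libraries described here are those of a Trichoderma reesei strain that lacks sor4, grown in light or in darkness. They were taken by their titles, sor4 LL 1 to 4 and sor4 DD 1 to 4, and are 8 of the 12 libraries of the series. Trichoderma reesei is a filamentous fungus that secretes cellulases and is used to produce them. The strain carries both a deletion of ku80, a gene of DNA end joining that is removed to ease gene targeting, and the deletion of sor4, which the series title calls a transporter of the SOR cluster. That cluster makes sorbicillinoids, a group of yellow pigments. The control strain of the series, used here for comparison in 4 libraries (2 per condition), carries the ku80 deletion alone; both derive from QM6a. All cultures were mycelium grown for 96 h at 28 °C on cellulose in a minimal medium. The treatment protocol text speaks of darkness for every sample, so light is taken from the title and the treatment label. The labels do not say how many transformants the deletion strain stands for, or whether each replicate was a culture of its own. The p-values therefore reflect library-to-library spread only, part of which may be technical.

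Filamentous fungi perceive blue light through a complex of proteins of the white collar family, called BLR1 and BLR2 in Trichoderma, which acts as photoreceptor and transcription factor. The small photoreceptor ENV1 adjusts the response under lasting light. In this fungus light is known to alter conidiation, secondary metabolism and the expression of cellulase genes on cellulose. These genes could not be looked up here, because the deposited table gives identifiers with no gene names and none of them matched the reference table; for the same reason the deleted gene could not be checked by name. The only named rows are 3 genes of the mating type locus mat1-1, and none of the 3 had a count in any library.

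The 8 libraries held between 8092301 and 12027855 counts, and no difference in total counts between darkness and light was detected (means 10060000 and 9962000, exact permutation p = 0.886, two-sided, n = 4 per group). The filter on low counts kept 8939 of 10879 rows for testing. Levels are given as CPM, the usual measure of counts relative to library size, with that size scaled by edgeR's TMM method, which aligns the bulk of the genes between libraries. In bulk mycelium, fewer cells of a kind and less RNA per cell cannot be told apart.

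Light changed more than every second gene tested in the sor4 strain, and the response was lopsided at its far end: small changes were more often increases, large changes more often decreases. With edgeR's quasi-likelihood test and an adjusted p under 0.05, 2380 genes rose in light (26.6% of those tested) and 2570 fell (28.8%), 4950 in all (55.4%). The lowest of the 4 light libraries lay above the highest dark library in 2368 genes (26.5%), and the highest light library lay below the lowest dark library in 2450 genes (27.4%). Most of the calls were small. Under 2-fold, 1594 genes rose and 1153 fell. Between 2-fold and 4-fold the order turned, with 482 genes that rose and 523 that fell. From 4-fold to 16-fold there were 237 against 534, and at 16-fold or more 67 against 360.

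At least 2-fold changes therefore comprised 786 genes that rose (8.79%) and 1417 that fell (15.9%). Such a count filters on the fitted fold without testing it. A test against a 2-fold change itself (edgeR's glmTreat, adjusted p under 0.05) left 443 genes that rose (4.96%) and 1020 that fell (11.4%). For 5171 genes (57.8%) the 95% interval of the change lay within 2-fold in either direction, and 2045 of these had passed the test for a change of any size. For 863 genes (9.65%) no change was called and the interval reached beyond 2-fold, so a change of that size was neither called nor excluded. The fitted folds of genes with no count in a condition depend on a small constant that edgeR adds. Of the 360 genes in the lowest class 77 had no count in any light library, and of the 67 in the highest class 6 had none in any dark library. With ratios of pooled counts that set a group with fewer than 3 counts to 3, 340 and 60 genes reached 16-fold.

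**Figure D1:**
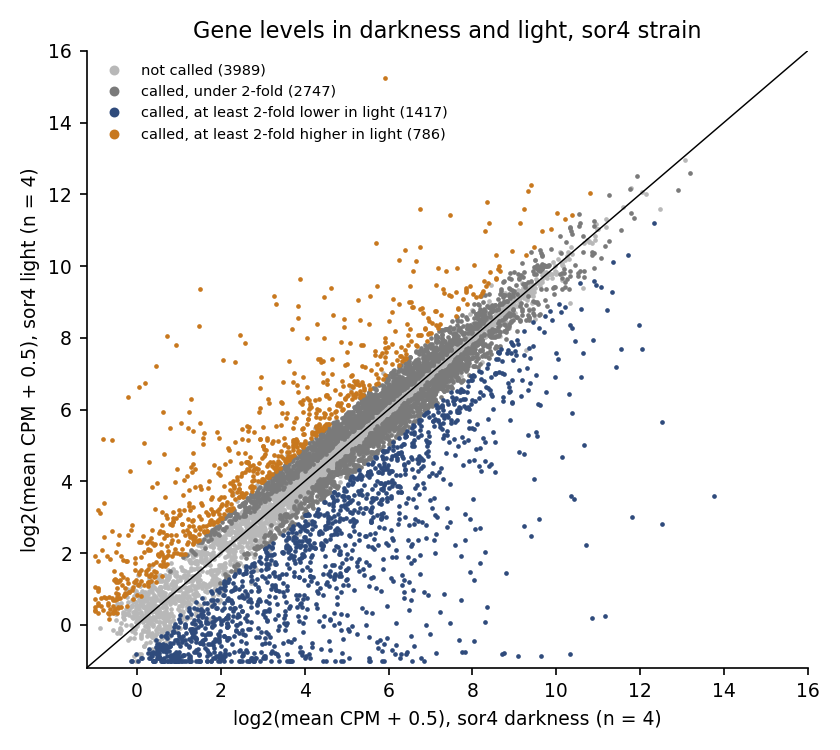
Mean level of each of 8939 tested genes in darkness (x axis) and in light (y axis) of the sor4 strain, as log2 of the mean CPM of 4 libraries plus 0.5. Points on the line are equal in both; 1417 genes called at least 2-fold lower lie below it and 786 called at least 2-fold higher lie above it, and the floor of the plot holds genes with no or almost no counts in light.

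The size classes exchanged places in the make-up of the RNA. Genes lowered at least 2-fold, a set defined by these same libraries, made up 20.1% ± 0.744 of the dark counts (SD, n = 4) and 3.83% ± 0.118 of the light counts. Those raised at least 2-fold made up 3.38% ± 0.251 in darkness and 17.3% ± 0.517 in light. Genes called with changes under 2-fold summed to 38.8% ± 0.83 and 40.5% ± 0.162, but those that fell went from 21.2% ± 0.623 to 15.2% ± 0.0776 and those that rose from 17.6% ± 0.251 to 25.3% ± 0.105. The 360 genes that fell at least 16-fold gave 6.6% to 7.85% of the counts of the dark libraries and 0.106% to 0.115% in light. The 67 most strongly raised genes gave 0.0411% to 0.068% in darkness and 4.70% to 5.89% in light. Most of the latter belonged to TrE0391W: without it, the other 66 genes gave 1.44% ± 0.113 in light. Without TrC1166C, the most abundant gene of the opposite class, the share in darkness was 5.87% ± 0.39 in place of 7.24% ± 0.531.

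**Figure D2:**
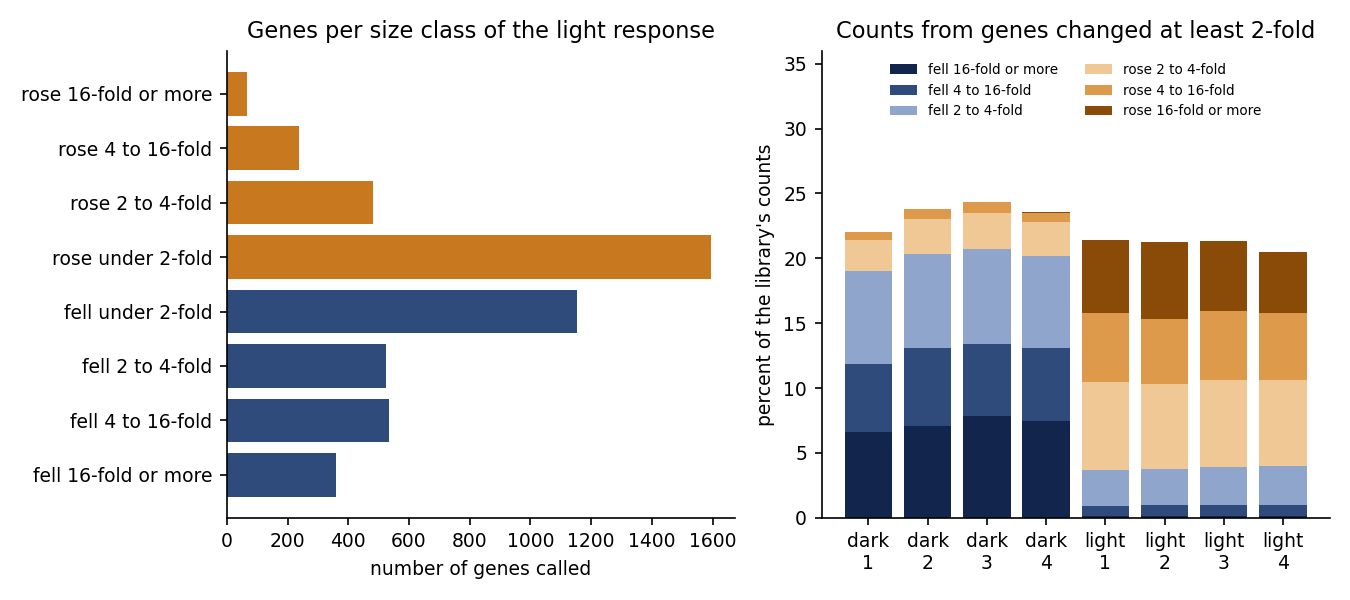
Left, number of genes called in each size class of the light response of the sor4 strain (bars from 0). Right, percent of each library's counts from genes called with at least 2-fold changes, stacked by size class; the blue classes fill most of each dark bar and the brown classes most of each light bar, at a similar total.

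The gene with the largest gain in CPM was TrE0391W, listed with a length of 180 bases. Its level was 2.80, 17.7, 189 and 28.3 CPM in dark replicates 1 to 4 and 40110, 42290, 39750 and 33850 CPM in light replicates 1 to 4. The light libraries lay within a narrow band, while dark replicate 3 stood far above the other dark libraries. Its change amounted to 9.36 on the log2 scale (SE 1.17, edgeR adjusted p = 4.13e-05), and TrE0391W went from 0.00579% to 3.96% of all counts and from rank 3335 to rank 1 by CPM. Without dark replicate 3 the change was 11.22 on the log2 scale; over all alternatives run it lay between 8.96 and 11.22. TrB1198C, 624 bases long, rose with the smallest p of all genes. It stood at 3.01, 1.83, 2.62 and 1.80 CPM in darkness and at 689, 625, 663 and 658 CPM in light, without overlap. The log2 fold change of TrB1198C was 8.15 (SE 0.146, adjusted p = 2.87e-11).

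The largest loss in CPM was that of TrC1166C, 1629 bases long. It stood at 12610, 11180, 16870 and 15040 CPM in the dark libraries, where it was the most abundant gene with 1.37% of all counts, and at 9.49, 9.53, 13.4 and 13.7 CPM in the light libraries. The log2 fold change of TrC1166C was -10.23 (SE 0.315, adjusted p = 5.89e-10), and its rank by CPM went from 1 to 6229. TrB0813C, 1455 bases long, fell with the smallest p of the genes that fell. Its values were 643, 545, 595 and 607 CPM in darkness and 26.6, 31.2, 23.8 and 23.9 CPM in light, again without overlap, and the change was -4.50 on the log2 scale (SE 0.113, edgeR adjusted p = 2.34e-10). In ku80, TrC1166C stood at 13400 and 17100 CPM in darkness and at 9.40 and 19.1 CPM in light, and TrE0391W at 31.0 and 19.5 CPM in darkness and at 55600 and 38200 CPM in light.

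The turnover reached the head of the transcriptome. Ranked per length (TPM, from counts and listed gene lengths), 8 of the 20 highest genes in darkness were also among the 20 highest in light (40%). Of the 20 highest in darkness, 9 fell at least 2-fold and 4 were not called, and of the 20 highest in light, 10 rose at least 2-fold. Over all genes tested, 15.9% fell and 8.79% rose at least 2-fold. Lists ranked within a condition lean to falls in darkness and to rises in light by construction. Among the highest 100, 61 were shared, and among the highest 1000, 770 were shared (77%). The share of counts in the 20 most abundant genes was higher in light through TrE0391W alone. The 20 genes with most counts held 10.2% to 11.1% of the counts of the dark libraries and 12.1% to 12.5% of those of the light libraries (exact permutation p = 0.0286, two-sided, the smallest that 4 against 4 libraries can give). Without TrE0391W the direction turned, with 10.2% to 11.1% in the dark libraries and 8.51% to 9.24% in the light libraries. Without both TrE0391W and TrC1166C it was 9.36% to 9.98% in darkness against the same light values (exact permutation p = 0.0286 for each, chosen after seeing the data). Fewer genes were detected in light: 8390 to 8470 genes reached 1 CPM in the dark libraries and 8092 to 8138 in the light libraries (exact permutation p = 0.0286). With p-values adjusted by Benjamini-Hochberg over the 4 measures per library, detected genes and the share with all genes both stood at 0.0381.

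How often and how strongly genes changed differed with abundance. Classes were formed by the mean CPM over the 8 libraries, which reflects read support and not molecules per length. The low-count filter works by group, so genes under 1 CPM on average were kept mainly through libraries where they stood higher. The share called in that class therefore depends in part on the filter. Of 455 genes under 1 CPM, 41.3% were called (Wilson 95% interval 36.9% to 45.9%), and every one of those calls was at least 2-fold. In the classes of 1 to 10, 10 to 100 and 100 to 1000 CPM, 52.6%, 55.7% and 59% were called. Of the 115 genes at 1000 CPM or more, 72.2% were called (63.4% to 79.5%). The median standard error of the log2 fold change went from 0.739 in the lowest class to 0.0854 at 100 to 1000 CPM, so that under 1 CPM no change under 2-fold was called; at 1 to 10 CPM, 256 of 378 increases and 497 of 565 decreases were at least 2-fold.

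The median absolute log2 fold change, over called and uncalled genes, was 1.5 under 1 CPM, 0.379 at 10 to 100 CPM and 0.299 at 100 to 1000 CPM. At 1000 CPM or more it was 0.618, above that of the class below, although the standard error there was similar (0.117). The classes rest on the mean over both conditions, so a strongly changed gene can enter the top class through the condition where it is high. How far this adds to the changes in that class was not tested. At least 2-fold changes were found in 16.2% of genes at 100 to 1000 CPM and in 31.3% of those at 1000 CPM or more, where 17 genes rose and 19 fell that far. Decreases outnumbered increases most at low abundance, with 28.8% against 12.5% of genes under 1 CPM and 31.5% against 21.1% at 1 to 10 CPM. Under 1 CPM, the size and direction of the changes also depend in part on the low-count filter. At 10 to 100 CPM 28.8% rose and 26.9% fell.

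The direction also followed the level in darkness. Of the 126 genes with 1000 CPM or more in darkness, 72 were called lower and 20 higher; at least 2-fold changes numbered 40 and 4. Of the 457 genes under 1 CPM in darkness, 154 rose and 40 fell. Classes formed on the dark level alone lean this way by construction, since an abundant gene has more room to fall and a chance high value in darkness counts as a decrease.

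**Figure D3:**
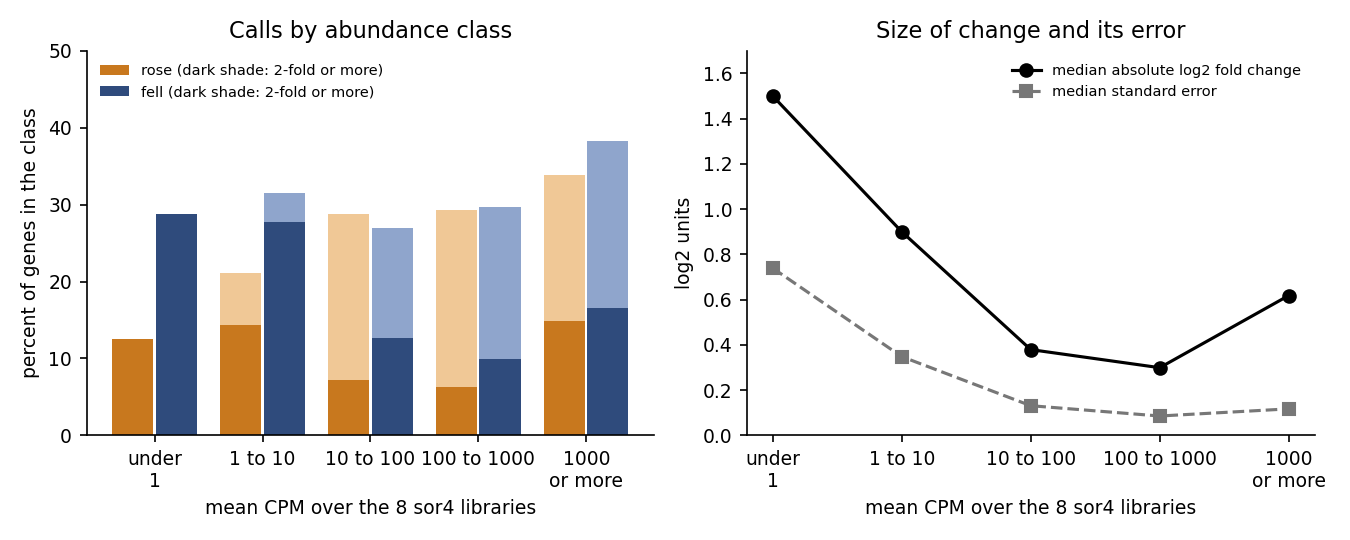
Left, percent of genes that rose (orange) or fell (blue) in light in each class of mean CPM over the 8 sor4 libraries, with changes of at least 2-fold in the dark shade. Right, median absolute log2 fold change and median standard error per class; both drop up to 100 to 1000 CPM, and the change is larger again at 1000 CPM or more.

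Long genes were called more often than short ones, and with smaller changes. Of 298 tested genes over 4000 bases, 66.4% were called and 19.1% changed at least 2-fold. Of 1031 tested genes of up to 500 bases, 45.6% were called and 25.7% changed at least 2-fold. Read support differed along with length, with a median of 12.3 CPM in the shortest class and 210 CPM in the longest. The part of read support in this order was not tested.

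Few genes were switched on by light and many more were switched off. A gene was counted as switched if every library of a condition had at least 5 CPM and every library of the other had under 0.5 CPM, a rule that itself keeps the groups apart. By it 57 genes were off in light and 4 were on in light only. The 57 ranged from a mean of 5.88 to 1280 CPM in darkness, with a median of 45.7 CPM; 12 stood at 100 CPM or more, 37 at 10 to 100 and 8 below 10. In 15 of them no light library had a count. They gave 0.608% ± 0.104 of the counts in darkness (SD, n = 4). In table order, 30 of the 57 had another of them within 5 positions of the same identifier series. The share over all genes at this distance was not computed, so no closeness particular to these genes is read from it.

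The 4 genes that were switched on, named because they are so few, reached modest levels. TrC0864C had 1, 3, 1 and 1 counts in dark replicates 1 to 4 and 335, 446, 310 and 331 counts in light replicates 1 to 4. TrE0645C had 1, 0, 1 and 1 counts in darkness and 324, 416, 354 and 351 in light. TrF0324C had 3 counts in darkness, all in replicate 3, and 78, 158, 84 and 94 in light, and TrG1033C had 2 counts in darkness, both in replicate 4, and 77, 93, 92 and 62 in light. Their mean levels in light were 35.3, 35.9, 10.1 and 8.09 CPM in that order. The ratio of pooled levels was 232 for TrC0864C (95% interval 106 to 633), 472 for TrE0645C (161 to 2290), 135 for TrF0324C (45.9 to 658) and 159 for TrG1033C (43.6 to 1320); these intervals cover counting error only. Leaving out a library can only keep or raise these counts, since the rule asks for every library. Without dark replicate 3, 10 genes met the rule for switched-on genes. The count of switched-off genes lay between 58 and 66 when any of the 8 libraries was left out.

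**Figure D4:**
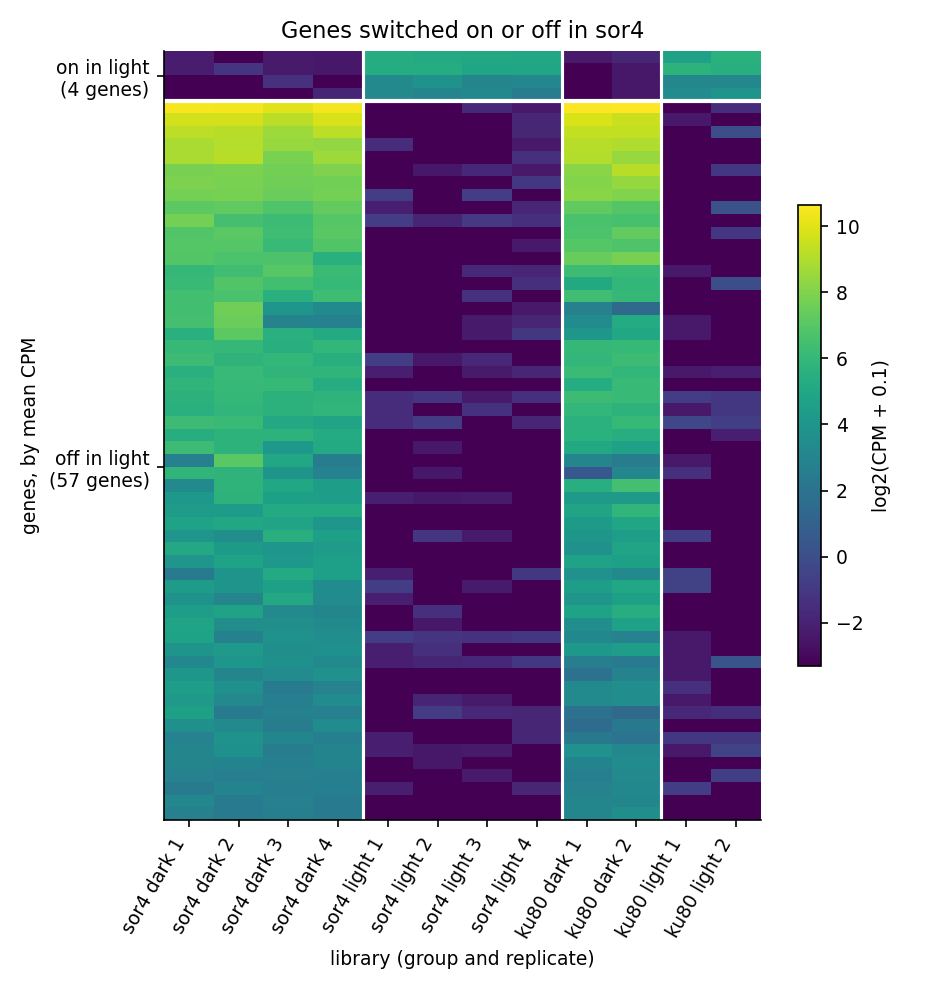
Level of the 4 genes switched on and the 57 genes switched off in light in the sor4 strain (rows, in order of their mean level) in each of the 12 libraries (columns), as log2 of CPM plus 0.1. The genes were chosen on the 8 sor4 libraries at the left. The 4 ku80 libraries at the right were not used for the choice beyond the shared filter and scaling.

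The counts of the ku80 libraries did not enter the sor4 group means or the rule for switched genes. They did share the low-count filter, the scaling and the fit that set the spread behind the calls. All 4 genes on in light and 42 of the 57 off in light met the same rule in the ku80 libraries, and 55 of the 57 were called lower there. The rule asks for every library, so with 2 per condition it was easier to meet in ku80. The share of all genes tested that met it in ku80 is not given here. The 360 most strongly lowered genes had a median log2 fold change of -6.03 in sor4 and -5.87 in ku80; 356 of the 360 had the same sign, and 300 (83.3%) were also called lower in ku80, where 22.8% of all genes were called lower. The 67 most strongly raised genes had medians of 5.31 and 5.75, all 67 had the same sign, and 60 (89.6%) were called higher in ku80, where 19.8% of all genes were called higher. Even among the changes under 2-fold, 1122 of 1153 decreases and 1549 of 1594 increases had the same sign in ku80, with medians of -0.50 in ku80 and -0.51 in sor4 for the former and 0.47 and 0.51 for the latter. Of the 3989 genes that were not called, 2864 (71.8%) also had the same sign in both strains. The test of a difference in the light response between the strains called no gene in edgeR (0 of 8939, 0%; 589 at an unadjusted p under 0.05), none in limma-voom and 8 in DESeq2. With only 2 libraries per condition in ku80, this does not show that the responses were alike.

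The libraries grown in darkness differed from each other more than those grown in light. The common biological coefficient of variation, the spread between libraries beyond counting error as edgeR estimates it, was 0.236 for the 4 dark and 0.101 for the 4 light libraries. Restricted to 1867 genes of at least 100 CPM in both conditions it was 0.155 and 0.0866. As a value per library, the median absolute log2 difference from the mean of the other 3 libraries was 0.214, 0.175, 0.166 and 0.132 in dark replicates 1 to 4 and 0.120, 0.121, 0.107 and 0.117 in light replicates 1 to 4. No light library reached the lowest dark one (exact permutation p = 0.0286, two-sided, adjusted p = 0.0381 over the 4 measures); the values of a group share its libraries and are not fully independent. With any 1 of the 4 light libraries left out, the exact permutation p was 0.0571. The differences were -0.0520, -0.0504, -0.0455 and -0.0480 (log2) for replicates 1 to 4 left out, against -0.0554 with all 8. With any 1 of the 4 dark libraries left out, the exact permutation p was 0.0286. Here the differences were -0.0420, -0.0665, -0.0730 and -0.0852 for replicates 1 to 4 left out. In ku80, with 2 libraries each, the coefficient of variation had the opposite order, 0.164 in darkness and 0.284 in light.

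**Figure D5:**
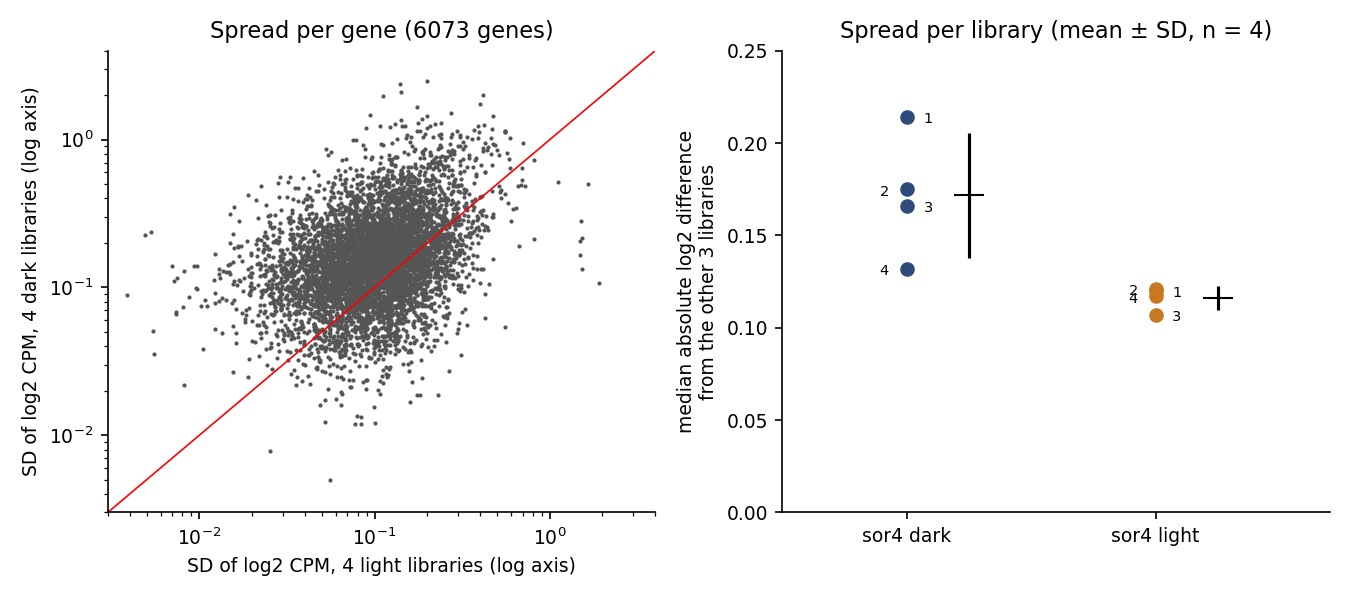
Left, standard deviation of log2 CPM of each of 6073 genes among the 4 light (x axis) and the 4 dark (y axis) sor4 libraries, both on log axes; 4336 genes lie above the line of equal spread. Right, the median absolute log2 difference of each library from the other 3 of its group, with replicate numbers, and the mean ± SD (n = 4); all dark libraries lie above all light libraries.

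Gene by gene, 4336 of 6073 genes with at least 10 CPM in both conditions (71.4%) had a larger standard deviation of log2 CPM in darkness than in light, with medians of 0.149 and 0.10. More than 2-fold between the lowest and the highest library lay 418 of these genes in darkness (6.88%) and 48 in light (0.79%). Dark replicate 1 was the farthest from the others in 280 of the 418. More than 4-fold apart in darkness were 72 genes. Dark replicate 1 was the lowest in 54 of them, and dark replicate 3 was the highest in 37. Over all 72, dark replicate 1 stood at a median of 0.231 times the middle of the other 3. Without dark replicate 1 the dark coefficient of variation was 0.194, and without dark replicates 2, 3 or 4 it was 0.239, 0.241 and 0.266, so each value lay above the 0.0919 to 0.109 found when a light library was left out.

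Spread in darkness by size class of the response depended on which genes were admitted. Among genes with at least 10 CPM in both conditions, the median standard deviation of log2 CPM in darkness was 0.248 for the 18 genes that fell at least 16-fold, 0.307 for 134 that fell 4 to 16-fold and 0.256 for 281 that fell 2 to 4-fold. It was 0.228 for 337 genes that rose at least 2-fold and 0.15 for 2826 that were not called. With 10 CPM required in darkness only, 202 genes that fell at least 16-fold were admitted and their median was 0.432; all but 18 of them entered through darkness alone, where they are high, so no order between the classes of fallers is read from these values. Small changes pass the test only where the spread is low, which bears on the lower values of genes called under 2-fold (0.133 for those that fell and 0.124 for those that rose).

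Dark replicate 3 often held the highest dark value of the genes that light raised 4-fold or more, and less often of those raised less. The strongly raised genes stood low in darkness. Their median was 0.773 CPM for rises of at least 16-fold and 2.76 CPM for 4 to 16-fold, against 30.7 CPM for genes not called. For many of them the order of the dark libraries therefore rests on low counts. Of the 67 genes that rose at least 16-fold, 32 (47.8%) had their highest dark value in replicate 3, and of the 237 that rose 4 to 16-fold, 85 (35.9%), against 24.5% over all genes tested. Of the 482 genes that rose 2 to 4-fold, replicate 3 was the highest in 29.3% and replicate 1 in 30.1%. Over all genes tested, replicate 1 was the highest in 34.4%. Of the 1594 that rose under 2-fold, replicate 3 was the highest in 23.3%. In replicate 3 the median deviation from the dark mean (log2) was 0.175 for rises of at least 16-fold and 0.138 for 4 to 16-fold. It was 0.0422 for rises of 2 to 4-fold and -0.0155 for the genes that fell at least 16-fold. A value near 0 means no shift. Without TrE0391W, the other 66 genes raised at least 16-fold gave 0.043% ± 0.00468 of the dark counts. Among the light libraries, replicate 4 was the lowest for the 67 genes, with a median deviation of -0.146, and 4.70% of its counts came from them.

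A small set of genes set light replicate 1 apart. Of the 6073 genes, 8 were over 4-fold apart between light libraries, and 7 of these were lowest in light replicate 1, by 4.97-fold to 14.8-fold against the middle of the other 3. TrE0170C, which had the largest excess of light spread over dark spread, stood at 10.5, 124, 191 and 154 CPM in light replicates 1 to 4 and at 977, 1020, 915 and 1090 CPM in darkness. Its neighbour in the table, TrE0171W, stood at 70.8, 460, 709 and 558 CPM in light. TrB0628C, TrG0015C, TrG0016W, TrG0122W and TrG0220C, named after their values were seen, followed the same order, with replicate 1 lowest and replicate 3 highest in each.

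The same 7 genes were 12.5-fold to 30.3-fold lower in ku80 light replicate 1 than in ku80 light replicate 2; over all genes tested, 48.7% were lower in ku80 light replicate 1. TrG0016W, for example, stood at 29.4 and 880 CPM in ku80 light and at 82.1, 522, 787 and 628 CPM in sor4 light. In darkness TrG0016W stood at 1400, 1400, 1030 and 1280 CPM in replicates 1 to 4, with replicate 1 not the lowest. Of the 7, TrG0220C alone had its lowest dark value in replicate 1, at 3390 CPM against 5810 to 7510 CPM. In the sor4 light response 4 of the 7 passed the test as lower, where 28.8% of all genes tested did. TrB0628C, TrG0015C and TrG0016W did not, with adjusted p of 0.306, 0.0921 and 0.167 (edgeR). The labels tie replicate numbers to no shared day or batch, and the part of one in this pattern was not tested. The eighth gene, TrA1398C, was highest in light replicate 1, at 68.9 CPM against 6.53 to 21.2 CPM.

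The opposite case was TrG0715W, which had the largest excess of dark spread over light spread. It stood at 449, 344, 310 and 357 CPM in darkness and between 329 and 332 CPM in all 4 light libraries, with no change in mean level called (log2 fold change -0.14, adjusted p = 0.263, edgeR).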

How the data were processed

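Total RNA of mycelium was isolated with a column kit and made into stranded libraries after ribosomal RNA depletion, per the labels' protocols. The submitters' processing notes name HISAT2 2.2.1, a read aligner. The authors deposited a table of whole-number counts per gene and library, whose name refers to featureCounts. The genome build, annotation and strand setting of the counting were not given in the sources used here, so reads of overlapping or near-identical genes cannot be told apart.

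Counts of all 12 libraries were fitted in edgeR 4.0.16 (R 4.3.3) with TMM scaling, edgeR's filterByExpr by group, 4 group means and the quasi-likelihood test; 99.97% or more of each library's counts were kept, and p-values were adjusted by Benjamini-Hochberg over 8939 genes. Standard errors and intervals come from the F statistic. Levels per length used the deposited gene lengths. Log2 CPM used a pseudocount of 0.5 for spread. Shares use Wilson intervals; ratios of pooled counts use exact binomial ones. Both cover counting error only.

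Named genes were, in each direction, the largest difference in CPM and the smallest p among called genes of at least 2-fold without overlap, and the largest and smallest ratio of dark to light standard deviation; others were named after their values were seen. Classes and genes were chosen with earlier results of these data known. Pairs of libraries within a group differed by a chi-square per gene of 7.12 to 80.2, and none was counted as 1 sample. Scripts were tested on simulated data. Alternatives used DESeq2 1.42.0, limma 3.58.1, other scalings, filters and sets of libraries, and a replicate block.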

Additional observations from a re-analysis of the deposited data

Results flagged for a closer look

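In sor4 darkness and light, 40 sets of 4 values (library-wide measures, shares of counts, gene levels) were screened for 1 value distant from the rest. Chance marks about 1 set in 20 where values are normally distributed; near 0 counts that rate does not hold. There were 5 such sets, all in darkness. TrE0391W stood at 189 CPM in dark replicate 3, against 2.80 to 28.3 CPM in the other dark libraries. The genes that rose at least 16-fold gave 0.0680% of the counts of dark replicate 3, against 0.0411% to 0.0444% in the others. TrE0391W is among these genes, so this set is not independent of the one before it. Without TrE0391W the other 66 genes gave 0.043% ± 0.00468 of the dark counts. TrC0864C stood at 0.343 CPM in dark replicate 2, against 0.0855 to 0.108 CPM. TrF0324C stood at 0.303 CPM in dark replicate 3 and TrG1033C at 0.171 CPM in dark replicate 4, each against 0 in the other dark libraries.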

How the results depend on the processing

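The counts of genes that rose or fell, in all and at least 2-fold, stayed within 1.5 times the values above under every scaling, filter, tool and set of libraries run. Leaving out each of the 8 libraries in turn gave 2133 to 2328 higher, 2327 to 2539 lower, 749 to 786 at least 2-fold higher and 1366 to 1402 at least 2-fold lower. More genes rose than fell with library size alone (2571 and 2388) and with the stricter filter (2263 and 2128). At least 2-fold decreases still led in both (1377 against 834 and 1003 against 615). A weight per group in limma-voom, which allows for the larger spread in darkness, gave 2473 and 2652. With the replicate block 2272 rose and 2333 fell. Same-numbered dark and light libraries deviated together at correlations of -0.096 to 0.076, and 1 of 4 dark libraries matched its own number best. Whether same-numbered libraries share a day or batch was not tested. Switched-on and switched-off genes numbered 2 and 37 with under 0.2 CPM required, 2 and 36 with at least 10 CPM, and 12 and 129 by group means. These rules are stricter or looser by construction. Leaving out a library, which can only keep or raise the counts, gave 4 to 10 and 58 to 66. The test between strains called 1 gene with no filter, 8 in DESeq2 and 0 to 1 with a library left out. The dark coefficient of variation was 0.155 at 100 CPM or more, and the difference in deviation ran from -0.0852 to -0.0420 with a library left out; the cause was not tested. With only the 8 sor4 libraries 57.5% of genes at 10 to 100 CPM and 61.3% at 100 to 1000 CPM were called. Added after seeing the data, shares without the top gene were 1.44% and 5.87%, and the light minus dark difference in the share of the 20 most abundant genes reversed to -1.78 percentage points without TrE0391W and -0.845 without TrE0391W and TrC1166C. DESeq2 gave TrE0391W no adjusted p. Levels per length leave shares by gene length as they are and were not run.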

Other observations

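The identifiers fall into 7 series, TrA to TrG. Genes that fell at least 2-fold made up 14% of the tested TrA genes, 14.3% of TrC, 14.8% of TrD, 15.1% of TrB, 16.1% of TrE, 19% of TrG and 21% of TrF. Those that rose as far ranged from 6.28% of TrG to 10.7% of TrF, so TrF was highest in both directions. Falls of at least 16-fold ran from 2.98% of TrC to 6.15% of TrF. Identifiers ending in W and C hardly differed, with 29.1% and 28.4% lower and 26.2% and 27.0% higher. These shares are descriptions, since genes with adjacent identifiers changed in the same direction more often than genes at large. No coordinates were given, so identifier order is not known to be order on the genome. Of 677 genes that fell at least 4-fold and whose next identifier was tested, 232 were followed by another that did. That was 34.3%, against 10% over all genes tested. For rises of at least 4-fold it was 42 of 240 (17.5%), against 3.40%. Without the strand setting, reads shared by overlapping neighbours cannot be told apart from such runs.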
